A study of Homo sapiens with 4 samples.

Results

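The genes described here are 10 imprinted genes that regulate growth, followed in the colorectal cancer cell lines HT29 and HCT116. They are CDKN1C, IGF2, H19, KCNQ1OT1, PHLDA2, PEG10, MEST, MEG3, GRB10 and SNRPN, found by their Ensembl identifiers among the 61544 genes of a raw count table. They were picked with results of the same 4 libraries already known, so their own values are given as a description with no test. HT29 and HCT116 are human epithelial lines, and each was sequenced as 1 library from cells kept for 24 h in 1 ug/mL LPS, the lipid of the Gram-negative outer membrane, and as 1 library from control cells. All cells grew in Advanced DMEM/F-12 medium with fetal bovine serum, and the study compared these lines as models of intestinal inflammation that differ in basal expression of the glucocorticoid receptor. There is no repeat of any condition, and the 95% intervals below are exact Clopper-Pearson intervals that cover counting error only.

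An imprinted gene is transcribed mainly from the allele of one parent, because DNA methylation set in the egg or the sperm marks that allele for silencing or use. Genes of this kind lie in clusters that share a control region, and many of them act as brakes or drivers of growth in the embryo and the placenta. On chromosome 11, IGF2 and H19 share a control region that the protein CTCF binds when it is unmethylated, and in a neighbouring cluster the long RNA KCNQ1OT1 silences CDKN1C and PHLDA2 in cis. Loss of imprinting at IGF2 is a well known alteration in colorectal tumours. Parental origin and DNA methylation were not measured in these gene counts, which sum the transcripts of all alleles.

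Promoter sequence was available here for 5 of the 10 genes, from RefSeq on GRCh38.p14, as windows of one fixed length that begin upstream of a transcript start and end shortly after it. For genes with several starts the window with most CpG dinucleotides was taken. Of these, 4 are shown because they set a gene with a high count in every library (MEST) beside a gene with counts almost wholly in HCT116 (H19) and a pair of genes with no count at all (MEG3 and SNRPN). Capitals mark each CpG, the dinucleotide that carries imprinting methylation. The windows are chr7:130491835-130492134 on the plus strand for MEST, chr11:2001217-2001516 on the minus strand for H19, chr14:100825858-100826157 on the plus strand for MEG3 and chr15:24954737-24955036 on the plus strand for SNRPN, each written 5′ to 3′ along the gene.
MEST: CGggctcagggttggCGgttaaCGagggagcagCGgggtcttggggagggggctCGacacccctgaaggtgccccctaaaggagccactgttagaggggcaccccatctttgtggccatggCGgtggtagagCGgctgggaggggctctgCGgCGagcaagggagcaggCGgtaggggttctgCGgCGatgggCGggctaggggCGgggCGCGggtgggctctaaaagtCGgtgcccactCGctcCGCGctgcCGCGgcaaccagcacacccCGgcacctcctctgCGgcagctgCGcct
H19: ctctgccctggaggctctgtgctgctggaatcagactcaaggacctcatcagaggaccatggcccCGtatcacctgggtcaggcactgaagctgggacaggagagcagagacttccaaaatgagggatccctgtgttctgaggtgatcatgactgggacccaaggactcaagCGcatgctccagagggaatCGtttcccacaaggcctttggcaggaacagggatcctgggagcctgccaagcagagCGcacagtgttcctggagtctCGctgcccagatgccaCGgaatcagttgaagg
MEG3: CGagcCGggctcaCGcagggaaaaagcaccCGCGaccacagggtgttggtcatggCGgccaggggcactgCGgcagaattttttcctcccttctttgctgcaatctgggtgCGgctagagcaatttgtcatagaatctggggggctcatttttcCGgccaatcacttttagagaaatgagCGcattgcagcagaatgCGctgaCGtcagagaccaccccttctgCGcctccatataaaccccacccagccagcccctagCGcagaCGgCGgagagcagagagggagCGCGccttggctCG
SNRPN: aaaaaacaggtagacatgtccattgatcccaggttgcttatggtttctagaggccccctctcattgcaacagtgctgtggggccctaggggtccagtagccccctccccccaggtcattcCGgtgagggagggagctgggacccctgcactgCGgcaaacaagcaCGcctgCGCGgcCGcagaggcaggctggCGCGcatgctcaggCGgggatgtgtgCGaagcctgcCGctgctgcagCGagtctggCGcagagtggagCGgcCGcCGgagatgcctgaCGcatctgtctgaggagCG

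The MEST window held 25 CpG, the MEG3 window 19, the SNRPN window 18 and the H19 window 6, and the median over 35116 promoter windows of the same length was 14. The fifth window, of GRB10, held 49 CpG. Taking the window with most CpG favours high values for the genes with several starts (MEST, MEG3, SNRPN and GRB10), so these numbers are not ranked against the other windows. The letters TGCCGC, searched on both strands, form the core that the imprint-keeping zinc finger protein ZFP57 binds when methylated, and they occurred in the windows of MEST, MEG3 and SNRPN and in 16.7% of all windows. The letters AGAACA, part of the element that the glucocorticoid receptor binds, occurred in the H19 window and in 14.8% of all windows. The TATA box letters TATAAA occurred in the MEG3 window and in 11.5% of all windows.

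Of the 10 genes, 7 had counts and 3 were at 0 in every library. The table of counts had totals between 19105058 and 21268959 per library. Levels are given as CPM, counts scaled to a common library size, after TMM normalization, and levels of different genes are compared only per length, as RPKM over the merged exons. Transcripts of the mitochondrial genome took 4.29% of counts in HT29 with LPS and 3.75% in the HT29 control, and 7.16% in HCT116 with LPS and 5.01% in the HCT116 control. The 10 colon epithelium markers summed to 17949 and 19264 CPM in HT29 with LPS and in control, and to 5055 and 5107 CPM in HCT116, where 4 and 3 of them were at 0. Of these markers KRT20 was at 0 in every library, as was the trophoblast marker HLA-G, and both also match an alternate contig of the reference. For both, absence of transcript and loss of reads with several alignments cannot be told apart. The 8 fibroblast markers summed to 4.03 to 5.27 CPM in HT29 and to 98.7 to 99.6 CPM in HCT116. Nearly all of the HCT116 sum was COL1A1, at 96.6 CPM with LPS and 98.4 CPM in the control. COL3A1 and PDGFRB also had counts in both HCT116 libraries, and LUM had counts in HT29 only. COL1A2, DCN, PDGFRA and THY1 were at 0 in every library. The 5 endothelial and 6 trophoblast markers did not pass 2.99 and 1.19 summed CPM in any library. The 6 leukocyte markers summed to 1050 and 1035 CPM in HT29 and to under 1 CPM in HCT116. Nearly all of the HT29 sum came from LYZ. CD14 was at 6.90 and 7.76 CPM in HT29 with LPS and in control, and at 0.435 and 0.530 CPM in HCT116. PTPRC, CD68 and CD79A had at most 7 counts in any library, and the T cell marker CD3E was at 0 in every library. In bulk RNA, fewer cells of a type and less RNA per cell cannot be told apart.

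**Figure D1:**
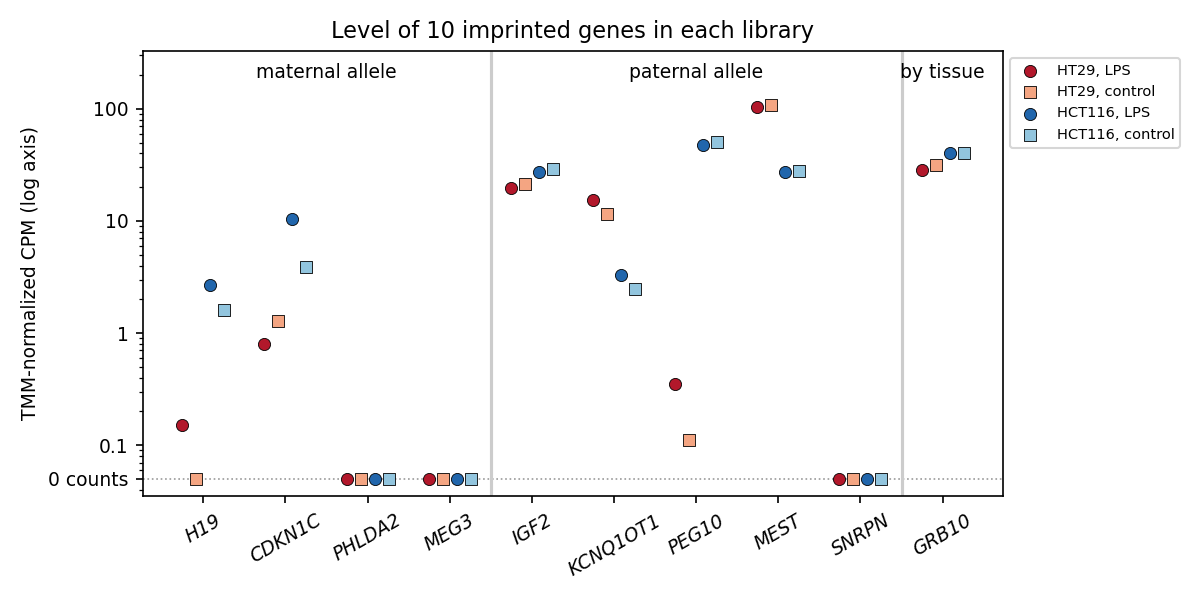
Level of each of the 10 genes in the 4 libraries as TMM-normalized CPM on a log axis, with 1 point per library and genes at 0 counts drawn on the dotted line, grouped by the allele usually transcribed. The HT29 points of PEG10 lie at 0.353 and 0.111 CPM against 47.5 and 50.3 CPM in HCT116, the MEST points lie the other way round, and PHLDA2, MEG3 and SNRPN sit at 0 throughout.

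CDKN1C encodes p57, an inhibitor of cyclin-dependent kinases that holds cells in G1, and it is normally transcribed from the maternal allele (chr11:2883213-2885775 on hg38, minus strand). Its counts in HT29 were 16 with LPS and 23 in the control. In HCT116 they were 214 with LPS and 88 in the control. Both HCT116 libraries thus lay above both HT29 libraries, and the LPS library was the higher of the pair in HCT116 but not in HT29. In HCT116 the level was 10.3 CPM with LPS and 3.89 CPM in the control, a log2 ratio of 1.39 (interval 1.05 to 1.79) or 2.62-fold, rank 35 from the top among the 14337 genes averaging 1 CPM or more in that line. In HT29 it was 0.806 CPM with LPS and 1.28 CPM in the control, a log2 ratio of -0.60 whose interval, -1.68 to 0.32, spans 0. The log2 ratio of HT29 to HCT116 was -3.53 (-4.51 to -2.95) with LPS and -1.54 (-2.34 to -0.93) in the controls, and these intervals do not overlap.

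The reference holds a further copy of CDKN1C. Its canonical transcript matched an alternate contig of chromosome 11 over 100% of its length at 99.8% identity, and 96.8% of its 31-base words occur there unchanged. Whether reads with several alignments were counted is not stated in any source at hand, so the counts of CDKN1C are uncertain. The neighbouring gene SLC22A18 matches the same contig over 100% of its length. It had 186 and 153 counts in HT29 with LPS and in control, and 226 and 235 in HCT116. The part of the copy in the counts of either gene, or in the CDKN1C difference, was not tested.

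PHLDA2 lies beside CDKN1C (chr11:2928273-2929420, minus strand) and encodes a small pleckstrin homology protein that limits placental growth from the maternal allele. It had 0 counts in every library, which allows up to 3 counts in each. Its transcript matched the alternate contig over 100% of its length at 100% identity, and 100% of its words occur there. Among 478 protein-coding genes with all their words on alternate contigs, 274 (57.3%) were at 0 in all libraries, and among 13172 with no such word 2353 (17.9%) were. For PHLDA2, absence of transcript and loss of reads with several alignments cannot be told apart.

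KCNQ1OT1 is the paternally transcribed, unspliced antisense RNA of this cluster and lies inside the potassium channel gene KCNQ1 (chr11:2597308-2700003, minus strand). Its counts in HT29 were 304 with LPS and 207 in the control, and in HCT116 they were 68 with LPS and 56 in the control. Here HT29 was the higher line, opposite to CDKN1C, and the LPS library was the higher one in each line. HT29 over HCT116 gave a log2 ratio of 2.19 (1.84 to 2.62) with LPS and 2.17 (1.78 to 2.67) in the controls, or 4.55-fold and 4.50-fold. For LPS over control it was 0.41 (0.16 to 0.68) in HT29 and 0.39 (-0.12 to 0.95) in HCT116, both under the size of 0.58 used as a threshold here.

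The host gene KCNQ1 differed between the lines in the same direction. KCNQ1 had 605 and 543 counts in HT29 with LPS and in control, and 195 and 187 in HCT116, a log2 difference of 1.78 between the lines (adjusted p = 1.11e-09 in edgeR's quasi-likelihood test), and its transcript matched an alternate contig over 50.2% of its length. KCNQ1OT1 counts were 0.502 and 0.381 of those of KCNQ1 in HT29 with LPS and in control, and 0.349 and 0.299 in HCT116. The count of KCNQ1OT1 spans 91667 bases that are mostly introns of KCNQ1 on the other strand, and whether the counting used strand is likewise not stated. Without strand, antisense RNA and unspliced KCNQ1 RNA cannot be told apart, and their parts in the KCNQ1OT1 counts were not tested.

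IGF2, the paternally transcribed fetal growth factor that signals through the IGF1 and insulin receptors, was present in every library (chr11:2129112-2158391, minus strand). It had 392 counts in HT29 with LPS and 388 in the control, and 564 in HCT116 with LPS and 659 in the control. HT29 lay somewhat lower in both conditions. Set over HCT116, HT29 had a log2 ratio of -0.46 (-0.65 to -0.28) with LPS and -0.44 (-0.62 to -0.25) in the controls. For LPS over control the intervals spanned 0 in both lines, at -0.12 (-0.33 to 0.08) in HT29 and -0.10 (-0.26 to 0.07) in HCT116. Of the IGF2 exon bases, 44.4% are shared with other annotated genes, among them INS-IGF2 on the same strand with 20.4%, and INS-IGF2 was listed at 0 counts in every library.

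H19 is a maternally transcribed long RNA and the precursor of the microRNA miR-675, and it competes with IGF2 for the same enhancers (chr11:1995166-2004552, minus strand). It had 3 counts in HT29 with LPS and 0 in the control, and 56 in HCT116 with LPS and 36 in the control. In contrast to IGF2 next to it, H19 was thus found almost wholly in HCT116. The log2 ratio of HT29 to HCT116 was -3.49 (-6.48 to -2.54) with LPS, and in the controls HT29 was at least 9.57-fold lower against a floor of 3 counts in the library. In HCT116 the log2 ratio of LPS to control was 0.73 (0.14 to 1.41), which rests on few reads. The canonical H19 transcript also matched an unlocalized contig of chromosome 11 over 100% of its length at 100% identity, so its counts carry the same limit as those of CDKN1C.

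PEG10, derived from a retrotransposon and needed for placental growth in mice, is transcribed from the paternal allele on chromosome 7 (chr7:94656325-94669695, plus strand). It had 7 counts in HT29 with LPS and 2 in the control, and 983 in HCT116 with LPS and 1138 in the control. No other gene of the 10 differed so far between the lines. HT29 over HCT116 gave a log2 ratio of -6.72 (-8.39 to -6.03) with LPS and -7.91 (-11.9 to -6.97) in the controls. In HCT116 the log2 ratio of LPS to control was -0.08 (-0.21 to 0.04). Its divergent neighbour SGCE, an imprinted sarcoglycan gene that starts beside it on the other strand, had 1 and 1 counts in HT29 with LPS and in control, against 300 and 212 in HCT116.

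MEST, a paternally transcribed gene for a protein of the alpha/beta hydrolase family, stood highest of the 10 genes in HT29 (chr7:130486171-130506465, plus strand). It had 2058 counts in HT29 with LPS and 1943 in the control, and 567 in HCT116 with LPS and 626 in the control. The HT29 libraries were the higher ones, the reverse of PEG10 on the same chromosome. Between the lines, HT29 over HCT116, the log2 ratio was 1.92 (1.79 to 2.06) with LPS and 1.96 (1.83 to 2.09) in the controls, or 3.77-fold and 3.88-fold. LPS over control gave -0.06 (-0.15 to 0.03) in HT29 and -0.01 (-0.18 to 0.15) in HCT116. Other genes share 27.6% of the MEST exon bases, and its antisense neighbour MESTIT1 had 8 and 1 counts in HT29 with LPS and in control and 0 in HCT116.

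GRB10, an adaptor that binds the insulin and IGF1 receptors and dampens their signal, has an imprint that depends on tissue and isoform (chr7:50590063-50793462, minus strand). It had 566 counts in HT29 with LPS and 574 in the control, and 836 in HCT116 with LPS and 915 in the control. HT29 was again somewhat lower. The log2 ratio of HT29 to HCT116 was -0.50 (-0.66 to -0.35) with LPS and -0.34 (-0.50 to -0.19) in the controls. The ratio of LPS to control was -0.16 (-0.33 to 0.01) in HT29 and -0.0021 (-0.14 to 0.13) in HCT116. GRB10 shares no exon base with another gene and has no near-identical copy, so its counts carry the fewest limits.

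MEG3 and SNRPN had 0 counts in every library. MEG3 is a maternally transcribed long RNA that slows growth in many cell types (chr14:100779410-100861031, plus strand), and SNRPN encodes a core spliceosome protein from the paternal allele of the Prader-Willi region (chr15:24823637-24978723, plus strand). No near-identical copy was found for either gene. MEG3 shares 2.58% of its exon bases with other genes, so shared exons cover little of it, and the genes around it were low too. RTL1, MEG8, MEG9 and DLK1 had 3 counts or fewer in each library, while DIO3, at the far end of that cluster, had 21 and 17 counts in HT29 with LPS and in control and 15 and 27 in HCT116.

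SNRPN is a harder case, since 78.1% of the exon bases of its canonical transcript and 43.9% of all its exon bases belong to other genes as well. SNURF, which shares its transcript, was also at 0 in every library, and reads that fall on exons of both can be lost in counting. The 1912 unshared bases of SNRPN held no count either. The paternally transcribed neighbours NDN, MAGEL2 and NPAP1 were at 0 too, SNHG14 had at most 4 counts, and MKRN3, a ring finger protein, had 2 and 4 counts in HT29 with LPS and in control and 42 and 62 in HCT116. UBE3A, a ubiquitin ligase that is imprinted in neurons, had 2924 and 2622 counts in HT29 with LPS and in control and 1698 and 2212 in HCT116. SNRPB, the close paralog of SNRPN that serves the spliceosome in most tissues, had 6061 and 6946 counts in HT29 with LPS and in control and 5012 and 5735 in HCT116.

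**Figure D2:**
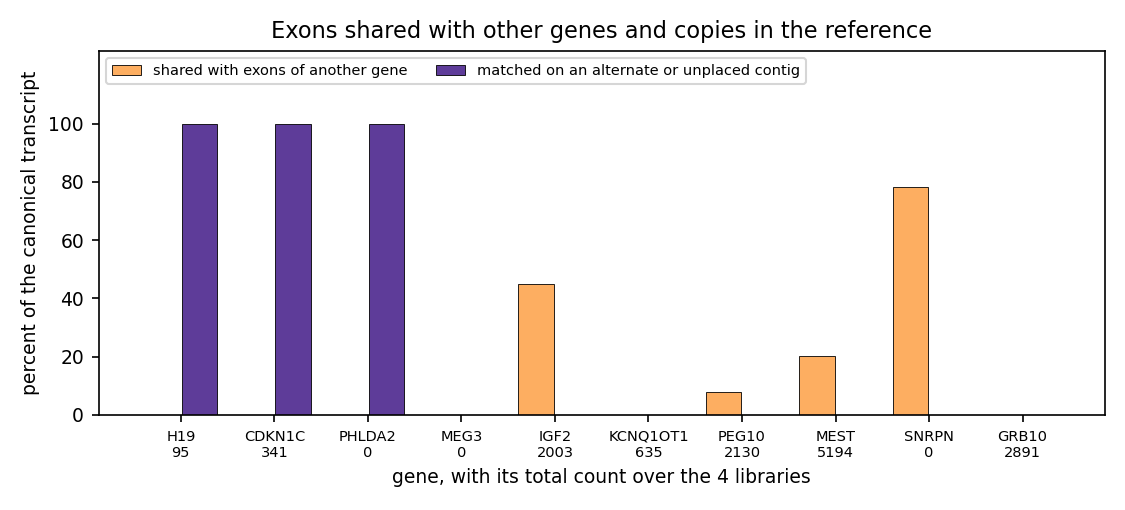
Percent of each canonical transcript that is shared with exons of another gene (orange) or matched on an alternate or unplaced contig of the reference (purple), with the gene's total count under its name. PHLDA2, at 0 counts, is wholly copied as are CDKN1C and H19, SNRPN shares 78.1%, and MEG3 is at 0 with neither.

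Per length, the order of the genes differed between the lines. In HT29, MEST led with 21.7 RPKM with LPS and 22.6 RPKM in the control. GRB10 (2.91 and 3.25 RPKM) and IGF2 (2.76 and 3.01 RPKM) came next in HT29, and their ranges overlapped. CDKN1C (0.325 and 0.514 RPKM) followed, then KCNQ1OT1 (0.167 and 0.125 RPKM), with PEG10 and H19 lowest. In HCT116, PEG10 led with 7.10 RPKM with LPS and 7.52 RPKM in the control, before MEST with 5.75 and 5.81 RPKM. GRB10 (4.12 and 4.13 RPKM), IGF2 (3.81 and 4.08 RPKM) and CDKN1C (4.17 and 1.57 RPKM) formed a middle group in which CDKN1C was above GRB10 and IGF2 only with LPS. H19 (0.932 and 0.548 RPKM) and KCNQ1OT1 (0.0358 and 0.0270 RPKM) were lowest. CDKN1C and H19 are each matched over 100% of their transcript elsewhere in the reference. If reads with several alignments were lost, their values per length are too low, so their places in both lines are uncertain. If reads on shared exons were not counted, the length behind IGF2 is too long, and over its unshared exon bases it would reach 4.97 and 5.42 RPKM in HT29 with LPS and in control, above GRB10, and 6.86 and 7.34 RPKM in HCT116. On the same basis MEST would have 7.93 and 8.01 RPKM in HCT116 with LPS and in control, above PEG10 with 7.34 and 7.78 RPKM, so the order of PEG10 and MEST in HCT116 depends on the length used.

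Across the genes, LPS went with a difference beyond 0.58 for few of them. In HT29, 5 of the 10 genes averaged 1 CPM or more, of which 0 were above 0.58 and 1, CDKN1C, was below -0.58, beside 3.5% of all 13201 genes above and 2.7% below. In HCT116, 7 of the 10 did, of which 2, CDKN1C and H19, were above 0.58 and 0 below -0.58, beside 3.56% of all 14337 genes above and 2.34% below. The CDKN1C ratio in HT29 rests on 16 counts with LPS and 23 in the control. With a prior count of 5 it was -0.53, within the threshold. The median log2 ratio was -0.12 over the 5 genes in HT29, against -0.0076 over all genes, and -0.0021 over the 7 genes in HCT116, against -0.0025 over all genes. These shares are printed to describe the genes, which were chosen on the same libraries.

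**Figure D3:**
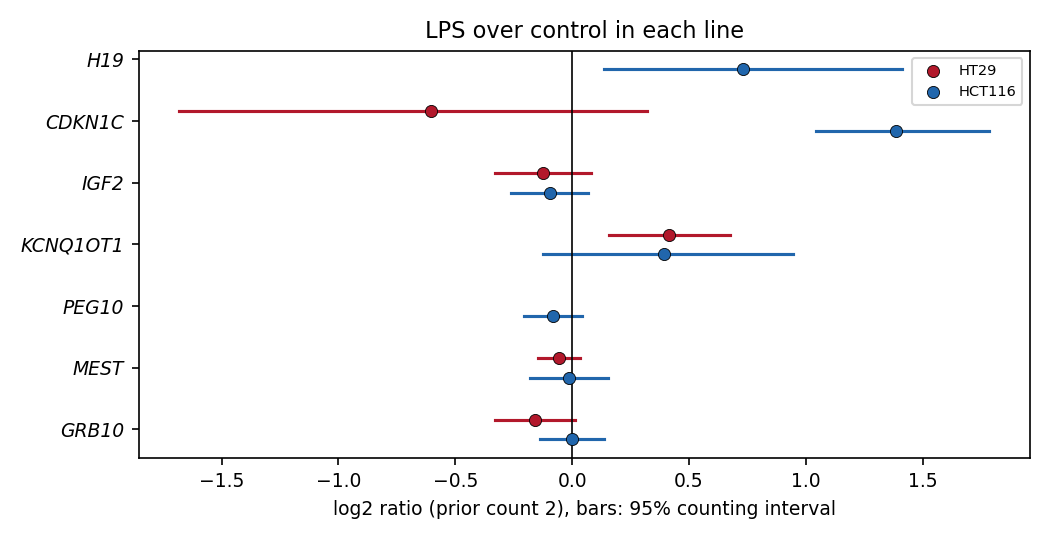
Log2 ratio of the LPS to the control library for each gene averaging 1 CPM or more in the line, with HT29 above HCT116 and bars for the 95% counting interval. CDKN1C stands at 1.39 in HCT116 and -0.60 in HT29, KCNQ1OT1 at 0.41 in HT29 and 0.39 in HCT116, and IGF2, PEG10, MEST and GRB10 within 0.16 of 0.

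For most of these genes the lines differed more than the treatments did. Of the 7 genes with counts enough, 2 (KCNQ1OT1 and MEST) were beyond 1 on the log2 scale in favour of HT29 both with LPS and in the controls, beside 14.6% of 14516 genes, and 3 (CDKN1C, H19 and PEG10) were beyond -1 in both, beside 21.2% of 14516 genes. The other 2, IGF2 and GRB10, lay between -0.51 and -0.34. The ratios with LPS and in the controls come from separate libraries, and each of the 7 genes kept its direction in both.

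**Figure D4:**
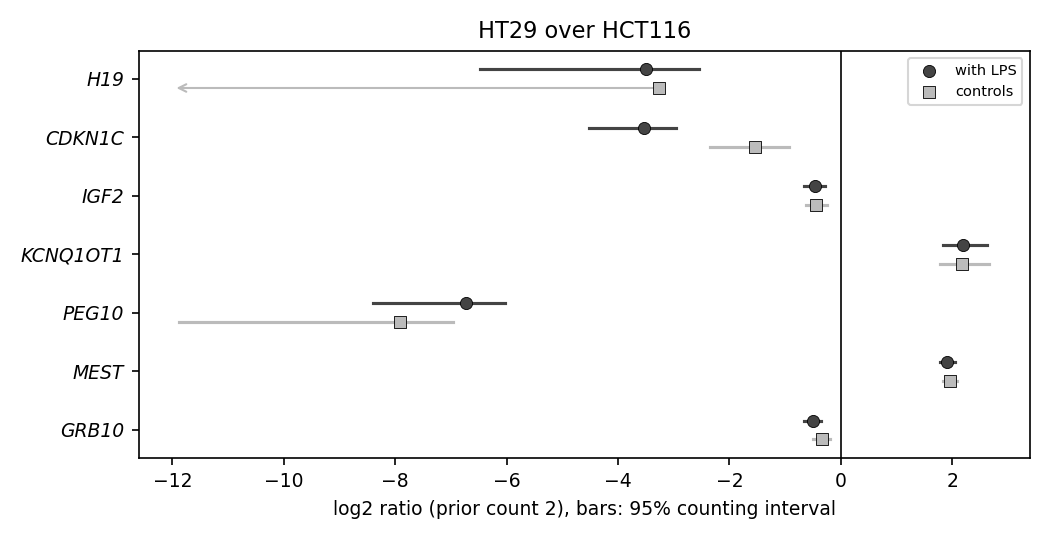
Log2 ratio of HT29 to HCT116 with LPS (circles) and in the controls (squares), with bars for the 95% counting interval. For H19 in the controls, where HT29 had 0 counts, the square marks the bound from a floor of 3 counts and the arrow runs towards lower values, and CDKN1C shows the one pair of intervals that lie apart.

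The wider set of imprinted genes was examined through a list of 52 other genes of human imprinted clusters, which was tested with edgeR's quasi-likelihood test over the 4 libraries. In the test of HT29 against HCT116 the LPS state was a block and the 2 libraries of a line stood in for replicates. Its p-values thus rest on how the line difference varied between the conditions, with information shared across genes. They do not measure the spread between cultures. Of 14516 genes tested, 38.0% were higher and 38.6% lower in HT29 at an adjusted p under 0.05. Of the 52 imprinted genes, 12 were at 0 in every library and 24 averaged 1 CPM or more, of which 10 were higher, 11 lower and 3 not called. Their median log2 difference was -0.48, against -0.02 over all genes. In both conditions 4 of the 24 were above 1 and 8 below -1, beside 14.6% and 21.2% of all genes. The share of called genes, in each direction, was thus close to that of all genes.

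Several imprinted genes were near 0 in HT29 and clearly present in HCT116. PLAGL1, a paternally transcribed zinc finger gene that regulates other imprinted genes in mice, had 2 and 0 counts in HT29 with LPS and in control against 863 and 1001 in HCT116. ZDBF2, another paternally transcribed zinc finger gene, had 0 and 0 counts in HT29 against 348 and 348 in HCT116. It was thus at least 101-fold lower against a floor of 3 counts in each HT29 library. DIRAS3, a growth-restraining small GTPase, had 0 and 0 counts in HT29 against 46 and 47 in HCT116 (at least 13.6-fold lower), and FAM50B had 0 and 0 against 109 and 121 (at least 33.5-fold lower). CPA4, a carboxypeptidase gene of the MEST cluster, had 0 and 2 counts in HT29 against 676 and 744 in HCT116. Together with PEG10 and SGCE these genes lay on chromosomes 1, 2, 6 and 7, in clusters that do not adjoin each other. SGCE and the genes of this paragraph other than PEG10 were named for the largest line differences of the list. They do not describe the list as a whole, in which 10 genes were higher and 11 lower in HT29. The share of all genes near 0 in HT29 and present in HCT116 was not counted.

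Not all imprinted genes followed that direction. ZNF331, an imprinted zinc finger gene, had 230 and 196 counts in HT29 with LPS and in control against 3 and 0 in HCT116. GNAS, which encodes a stimulatory G protein subunit, differed by 0.60 and BLCAP, a growth-suppressing gene around NNAT, by 1.49 on the log2 scale, both higher in HT29 (adjusted p = 3.24e-07 and 2.41e-13 by edgeR).

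**Figure D5:**
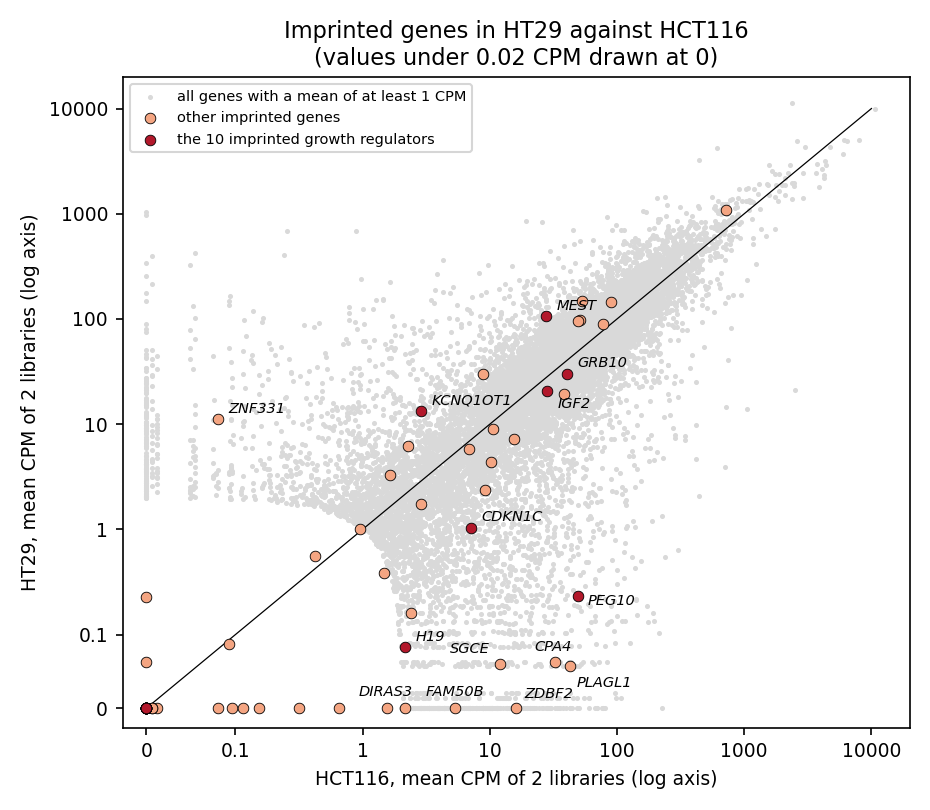
Mean CPM of the HT29 libraries against the mean CPM of the HCT116 libraries on log axes, with the 10 genes in red, the other imprinted genes in orange and all genes averaging 1 CPM or more in grey. PEG10, SGCE, CPA4, PLAGL1, ZDBF2, FAM50B and DIRAS3 lie at the lower edge, near 0 in HT29, and ZNF331 is the single labelled gene near 0 in HCT116.

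For LPS over both lines, with the line as a block, edgeR called 0.124% of 14516 genes higher and 0.0964% lower. It called 0 of the 24 other imprinted genes, of which 1 had an unadjusted p under 0.05, and DESeq2 called 0 as well. Within single lines, L3MBTL1, a chromatin reader of methylated histones, had 119 counts in HT29 with LPS and 51 in the control (log2 ratio 1.06, interval 0.60 to 1.59), whereas HCT116 had 217 with LPS and 227 in the control (0.06, -0.21 to 0.34). Other genes share 98.2% of the exon bases of its canonical transcript and 25.0% of all its exon bases, so its counts are uncertain. NNAT, a small membrane proteolipid, had 80 and 45 counts in HT29 with LPS and in control (0.67, 0.15 to 1.25). SGCE had a log2 ratio of 0.62 (0.37 to 0.89) in HCT116, and KLF14, a single-exon transcription factor gene of the MEST cluster, had 20 and 49 counts there (-1.09, -1.99 to -0.39). The 4 values named here were beyond 0.58 in one line each and have no replicate check. Of the other imprinted genes averaging 1 CPM or more in HT29, 2 of 18 were above 0.58 and 0 below -0.58, beside 3.5% and 2.7% of all genes. In HCT116, 2 of 25 were above 0.58 and 1 below -0.58, beside 3.56% and 2.34% of all genes.

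Of 19 genes of the IGF axis, the signalling partners of IGF2 and GRB10, 12 were tested, of which 4 were higher and 7 lower in HT29, beside 38.0% higher and 38.6% lower among all genes. IGFBP4, which binds and restrains IGFs, had 4061 and 4135 counts in HT29 with LPS and in control against 0 and 1 in HCT116, while STC2, an inhibitor of the protease that cleaves IGFBP4, had 2 and 0 against 1073 and 1103. INSR, the insulin receptor, was lower in HT29 by a log2 difference of -4.54 (adjusted p = 2.37e-14 by edgeR), and IGFBP3 had 0 and 0 counts in HT29 against 68 and 84 in HCT116. IGF1R, the main receptor for IGF2, was higher in HT29 by 1.31 (adjusted p = 5.66e-10), and IGF2R, the receptor that clears IGF2, by 0.49 (adjusted p = 1.96e-05). IGFBP2 was lower by -2.80 and IGFBP6, a binder with preference for IGF2, higher by 1.51 in HT29 (adjusted p = 1.13e-17 and 6.54e-14). For LPS over both lines edgeR called 0 of the 12, with 0 at an unadjusted p under 0.05, and DESeq2 called 0 with 1 at an unadjusted p under 0.05.

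Among the G1 regulators that act beside CDKN1C, 13 of 14 were tested, of which 4 were higher and 6 lower in HT29, close to the 38.0% and 38.6% of all genes. CDKN1A (p21), the paralog of CDKN1C and a p53 target, had 327 and 232 counts in HT29 with LPS and in control against 15416 and 15787 in HCT116, a log2 difference of -5.62 (adjusted p = 6.53e-21 by edgeR). It thus had the same direction between the lines as CDKN1C. CDKN1B (p27), the third of these inhibitors, was higher in HT29 by 0.49 (adjusted p = 1.34e-05). CCND1, the D cyclin of G1, was lower in HT29 by -2.19, while CCND3 was higher by 1.22 and CDKN2A, the p16 and p14ARF gene, higher by 1.44 (adjusted p = 2.22e-16, 2.01e-11 and 1.68e-13), and CCNE2 was lower by -0.89 (adjusted p = 3.72e-04).

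For LPS, none of these G1 genes was past 0.58 in either line, unlike CDKN1C in HCT116. CDKN1A had log2 ratios of LPS to control of 0.35 (0.11 to 0.61) in HT29 and 0.09 (0.06 to 0.13) in HCT116. CDKN2A had -0.30 in each line, and CCND3 had -0.38 in HCT116. EdgeR called 0 of the 13 for LPS, with 2 at an unadjusted p under 0.05, and DESeq2 called 1, CDKN2A.

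The proteins that set or keep imprints were followed in a list of 22 genes, of which 16 were tested, 4 higher and 7 lower in HT29, against 38.0% and 38.6% of all genes. DNMT3B, a de novo DNA methyltransferase, had 163 and 97 counts in HT29 with LPS and in control against 905 and 872 in HCT116 (a log2 difference -2.61, adjusted p = 2.17e-12 by edgeR). DNMT3A, its paralog, was lower by -1.13, and ZNF445, a zinc finger protein that guards imprints, by -1.18 (adjusted p = 6.81e-08 and 4.44e-09). TET1, which oxidizes methylated cytosine, had 1 and 1 counts in HT29 against 78 and 104 in HCT116. SUZ12 and EZH2, subunits of the Polycomb complex that adds repressive histone marks, were higher in HT29 by 1.19 and 0.93 (adjusted p = 3.12e-12 and 6.42e-10). ZFP57 was at 0 in every library, and its transcript also has a copy on an alternate contig. For LPS over both lines edgeR called 0 of the 16, with 2 at an unadjusted p under 0.05, and DESeq2 called 0. DNMT3B had a log2 ratio of LPS to control of 0.60 (0.24 to 0.99) in HT29 and 0.18 (0.05 to 0.32) in HCT116, ARID4A had -0.41 in HT29, and TET1 had -0.28 in HCT116.

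Of 19 paralogs of the 10 genes, 12 were tested, of which 5 were higher and 7 lower in HT29, where 38.0% of all genes were higher and 38.6% lower. Of the retrotransposon-derived relatives of PEG10 that were tested, RTL10 was higher in HT29 by 1.25 on the log2 scale (adjusted p = 2.93e-12 by edgeR), opposite to PEG10, and had 2733 and 2375 counts in HT29 with LPS and in control against 1135 and 1313 in HCT116. The others, RTL8C, RTL5, RTL8A and RTL6, were lower in HT29. RTL8C had 1 and 1 counts in the HT29 libraries with LPS and in control against 1487 and 1334 in those of HCT116. RTL5 had 6 and 0 against 347 and 406, RTL8A 680 and 529 against 1656 and 1447, and RTL6 647 and 604 against 1831 and 1980. PHLDA3, a p53-induced paralog of PHLDA2, was measured at 464 and 424 counts in HT29, against 2163 and 2369 in HCT116 (a log2 difference -2.16, adjusted p = 3.89e-15 by edgeR). GRB14, the paralog of GRB10, was higher in HT29 by 2.32 (adjusted p = 1.03e-09), opposite to GRB10. It had a log2 ratio of LPS to control of -0.51 (-0.96 to -0.09) in HCT116, SNRPB had -0.34 in HT29 and RTL8A had 0.32 in HCT116. For LPS over both lines edgeR called 0 of the 12, with 2 at an unadjusted p under 0.05, and DESeq2 called 0.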

How the data were processed

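RNA of HT29 and HCT116 cells was sequenced as 4 libraries, 1 per condition. Per the submitters' processing notes, cutadapt 1.9 and Trimmomatic 0.39 were used, and the authors aligned reads to hg38 with HISAT2 2.1.0 and deposited the raw counts per gene made with featureCounts 2.0.1. The annotation release is not given in the sources used here, nor is it stated whether strand was used or multi-mapped reads were kept. Names and positions came from GENCODE 44, and 57782 of 61399 gene lengths equal it.

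Counts were normalized by TMM (edgeR 4.0.16, limma 3.58.1, R 4.3.3), and log2 ratios had a prior count of 2. Genes averaging 1 CPM or more were kept, with size thresholds of 0.58 for LPS and 1 between lines. Intervals are 95% Clopper-Pearson intervals without the prior count, and a floor of 3 counts stood in for 0. EdgeR's quasi-likelihood test over the 4 libraries, with the other factor as a block, 1 residual degree of freedom and Benjamini-Hochberg adjustment at 0.05, served the other gene lists. Copies were sought with minimap2 2.31 (at least 50% covered at 98% identity) and by 31-base words on 261 alternate contigs.

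The 10 genes and the 5 gene lists were chosen with earlier results of these data known. Of each list the up to 6 genes with the largest line difference and up to 2 with the largest LPS ratio per line were named. GNAS, BLCAP, ZNF331, SLC22A18, RTL10, ZFP57 and the neighbours of MEG3 and SNRPN were added after their values were seen. Alternatives were TMM within lines, scaling by library size alone or by the size factors of DESeq2 1.42.0, the DESeq2 test, prior counts of 0.5 and 5, no filter or 5 CPM, a threshold of 1, thinned counts, no block and single libraries left out. The scripts were tested on simulated data. 0 columns belonged to no sample.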

Additional observations from a re-analysis of the deposited data

Results flagged for a closer look

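IGF2R, the receptor that clears IGF2, had a log2 ratio of LPS to control of 0.25 (interval 0.18 to 0.31) in HT29 and -0.19 (-0.27 to -0.12) in HCT116, in opposite directions in the lines. SMCHD1, which keeps genes silent on the inactive X chromosome and in imprinted clusters, had 0.15 (0.07 to 0.24) in HT29 and -0.29 (-0.37 to -0.20) in HCT116. For neither gene was this difference tested, since each line has 1 library per condition and the intervals cover counting error only.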

How the results depend on the processing

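With 1 library per condition, no replicate check exists within a line, and low genes such as H19 are limited by their few counts. The number of genes past 0.58 for LPS depended on the filter and threshold. In HT29 it was 818, and 8871 with no filter, 133 with a mean of at least 5 CPM and 219 with a threshold of 1. In HCT116 it was 846, and 7558, 115 and 208 under the same settings. LPS over both lines gave 32 calls, and 84 with DESeq2, 14 with DESeq2 size factors, 103 with no filter, 136 at 5 CPM and 0 without the block. The line comparison gave 11112 calls, and 10161 to 10559 with single libraries left out. Among the other imprinted genes it gave 21 calls, 18 to 23 with single libraries left out and 19 without genes that have a copy, an alternative chosen after seeing the data. With genes at 0 in a line set to their bound, also chosen after seeing the data, the median of these genes was -0.48 as before. Of 142 alternative values for the log2 ratios of the 10 genes, 139 stayed within their counting intervals. With counts thinned to the smallest library, 2 values near 0 changed sign, the ratios of LPS to control in HCT116 of MEST (0.0032) and GRB10 (0.01). The other 3, all with library size alone, which shifts the median of all genes between the lines by -0.13 with LPS and -0.17 in the controls, were MEST at 1.78 and 1.79 and GRB10 at -0.52. The levels of IGF2 and MEST per length rose with unshared exons as given in the report. LPS and control libraries were paired by line through the block, and no pairing by replicate number could be made with 1 library per condition. The cause of these shifts was not tested.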
